A study of Mus musculus with 22 samples.

Results

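Malat1, Neat1, Kcnq1ot1, Pvt1, Gas5, Snhg1, Snhg12 and H19 are long noncoding RNAs (lncRNAs) that are kept in the nucleus or are known to respond to stress. They were taken by gene name from a table of RNA-seq values for 52636 genes in mouse duodenal organoids, and all 8 names were found. The organoids were grown from wild-type outbred CD1 mice of 2 months and carried no transgene. Cold atmospheric plasma (CAP) was applied at 50 W for 60 s to the culture itself at day 1 after replating, and the medium was then replaced after 30 min (direct CAP, 30 min) or 24 h (direct CAP, 24 h). Naive organoids also received medium from a separate CAP-treated culture (indirect CAP) or medium that had been treated without organoids (plasma-activated medium, PAM), for 24 h from day 1 or from day 2. Per the study, the medium given at day 1 was freshly treated, whereas the medium given at day 2 had been treated at day 1. The indirect and PAM cultures of day 1 then had fresh medium until day 3, whereas those of day 2 were in treated medium until day 3. There were 4 untreated libraries, from lines 1, 2, 3 and 4, and 3 libraries in each of the 6 treated groups, from lines 1, 2 and 4. By the labels, lines 1, 2, 3 and 4 were at passage 12, 14, 4 and 4, so line and passage cannot be told apart. Each line came from 1 mouse, so 3 treated lines against 4 untreated lines is all the biological replication there was. The sample labels give 30 min for the indirect and PAM groups named day 1 here and 24 h for those named day 2. The study's methods describe them by day, and that naming is used. The sources used here do not settle whether the direct CAP 30 min libraries were collected soon after the medium change or on day 3.

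Malat1 is an abundant nuclear lncRNA of the nuclear speckles, bodies that store splicing factors. Neat1 is made from the neighbouring gene and is the scaffold of the paraspeckles, nuclear bodies that hold RNA-binding proteins and grow under several kinds of stress. Kcnq1ot1 is an imprinted antisense RNA that silences neighbouring genes in cis, and H19 is an imprinted RNA of fetal tissue that hosts a microRNA. Pvt1 lies beside Myc. Gas5, Snhg1 and Snhg12 carry small nucleolar RNAs (snoRNAs), guides for ribosomal RNA modification, in their introns, and their spliced exons are degraded by nonsense-mediated decay when translation is active.

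Malat1 and the long isoform of Neat1 share an unusual 3′ end: instead of a poly(A) tail, a genomically encoded A-rich tract folds into a triple helix with a pair of U-rich motifs upstream of it. The sequences of that element are shown because no other annotated transcript held its motifs in these exact letters. They come from the GENCODE vM21 transcripts Malat1-201 (bases 6598 to 6691 of 6983) and Neat1-201 (bases 20672 to 20771 of 20771), and capitals mark the first U-rich motif, the second U-rich motif and the A-rich tract, written with T for U.
Malat1: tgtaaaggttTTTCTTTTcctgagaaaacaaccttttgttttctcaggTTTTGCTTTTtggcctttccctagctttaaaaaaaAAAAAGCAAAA
Neat1: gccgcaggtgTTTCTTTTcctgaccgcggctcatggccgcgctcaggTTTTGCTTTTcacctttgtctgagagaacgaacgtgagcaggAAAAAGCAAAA
The 3 capitalised motifs, in that order on the transcribed strand and with at most 60 bases between neighbours, were found in 2 of 141767 transcripts, those of Malat1 and Neat1. Only these exact letters were searched, so an element of this kind with other letters would have been missed.

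Genes for ribosomal proteins and many snoRNA hosts start transcription at a C within a pyrimidine run (a TOP start), which links them to growth signalling. The start sites are shown because the snoRNA hosts are known as a class by them, with those of Malat1 and Kcnq1ot1 for contrast. They were read from RefSeq promoters on GRCm38.p6, with the first 10 transcribed bases in capitals.
Gas5 (first listed start): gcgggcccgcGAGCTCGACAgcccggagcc
Gas5 (second listed start): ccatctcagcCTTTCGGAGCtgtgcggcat
Snhg1: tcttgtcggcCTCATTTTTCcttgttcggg
Snhg12: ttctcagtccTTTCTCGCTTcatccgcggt
Malat1: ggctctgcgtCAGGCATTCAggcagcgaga
Kcnq1ot1: ttgtcgctagGAGGAACAGTtgcctcagca
A start at C followed by an unbroken run of at least 5 pyrimidines counted from the start base was found at 2.51% of 32851 promoters, and the second Gas5 start was among them, while the first Gas5 start begins with G and holds 4 pyrimidines in 10. The first transcribed bases of Snhg1 and Snhg12 held 9 pyrimidines in 10, against 5 in Malat1 and 2 in Kcnq1ot1. Neither of these 2 hosts met the rule, since Snhg1 starts at C with an unbroken run of only 3 pyrimidines and Snhg12 starts at T. In the windows from 250 bases before to 50 after these starts, 5 motifs were searched on both strands. They were the AP-1 motif TGANTCA (present in 7.81% of all promoters), the CCAAT box itself (37.4%), the E-box CACGTG (7.15%), the antioxidant response core TGACNNNGC (12.4%) and the ATF4 motif TGATGNAA (3.97%), and none contains another. Among the 6 start windows of these genes, matches were found for Kcnq1ot1 only, 3 of the CCAAT box and 1 of the antioxidant response core. No promoter window was available for Neat1, Pvt1 and H19, so these were not searched.

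Every value below is a read count scaled to 20 M reads per library (M, mega), so it is a share of the library and not a count per cell. The libraries held an estimated 19.8 to 28.7 M counted reads. Epithelial markers (Epcam, Cdh1, Vil1, Krt8 and Krt18) summed to 82211 to 92997 in the untreated libraries and no lower than 88849 in any treated library. Of 20 markers of immune, stromal, endothelial, muscle and neural cells, 15 had a mean under 10, and none was at 0 in all libraries. Among these, Cd68, a macrophage marker, was 21.5 untreated and passed upward with PAM from day 1 (66, log2 fold change 1.57, adjusted p = 0.00238) and day 2 (52.3, 1.23, adjusted p = 0.009) and in the 9 libraries of 24 h from day 1 (1.35, adjusted p = 0.000427). Lyz2, another immune marker, went the other way, from 143.5 untreated to 47.7 with PAM from day 1 (-1.87, adjusted p = 0.0119). It was at -1.5 with PAM from day 2 (adjusted p = 0.0967) and -1.24 in the 9 libraries (adjusted p = 0.0413), and did not pass. Vim, a stromal marker, passed downward with indirect CAP from day 2 (-1.43, adjusted p = 0.00421). Col1a1, another stromal marker, was higher there (11 against 2.5, 2.02, adjusted p = 0.0237) without passing. The 5 immune markers summed to 155 to 197 in the untreated libraries and 94 to 231 in the treated ones, and the 5 stromal ones to 41 to 62 and 20 to 87. The stem cell markers Lgr5, Olfm4, Ascl2 and Smoc2 summed to a mean of 31328 in untreated organoids and 1086 with PAM from day 2. The 13 mitochondrially encoded genes took 0.585 to 0.757% of the untreated libraries and 0.236 to 0.356% of those given PAM from day 2. Changes in lncRNA share ran beside these shifts in marker and mitochondrial values, and their part in the results was not tested. Untreated line 1 deviated together with treated line 2 (r of 0.50 to 0.75) more than with its own line (0.06 to 0.31), and untreated line 2 with treated line 1 (0.26 to 0.62) more than with its own (0.14 to 0.33). This touches the fits with line as a block and not the others. In bulk RNA a change in the number of cells of a type and a change in RNA per cell cannot be told apart.

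Malat1, Neat1 and Pvt1 were higher in each of the 18 treated libraries than in any of the 4 untreated libraries. Of all genes tested, the share with all 3 treated libraries above all untreated ones was 12.4% and 11.6% for direct CAP at 30 min and 24 h, 16.7% and 22.7% for indirect CAP from day 1 and day 2, and 17.1% and 20.7% for PAM from day 1 and day 2. The share of genes with all 18 treated libraries above all untreated ones was not determined. The groups have the same untreated libraries and the same lines, so these shares are not independent and cannot be multiplied.

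A gene was said to pass the study's threshold when its p, adjusted over all genes tested in limma, was below 0.01 and its log2 change was 1 or larger in size. With direct CAP at 30 min 0 of 8 lncRNAs passed, where 0.00564% of all genes passed and 24.9% were below 0.05 before adjustment. With direct CAP at 24 h 0 of 8 passed (2.17% of all genes did, 1.25% upward), although Malat1, Neat1 and Pvt1 had an adjusted p under 0.05 there, as did 17.3% of genes. With indirect CAP, Malat1, Neat1 and Pvt1 passed, all upward, both from day 1 (1.31% of genes passed, 0.831% upward) and from day 2 (11.9% passed, 6.2% upward). With PAM, Malat1 and Neat1 passed upward both from day 1 (10.2% of genes passed, 4.83% upward) and from day 2 (17.3% passed, 6.82% upward). No lncRNA of the 8 passed downward in any of these comparisons. Malat1, Neat1 and Kcnq1ot1 were among the lncRNAs that the study itself picked out at 30 min, from libraries used here, so their values there are not independent evidence.

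**Figure D1:**
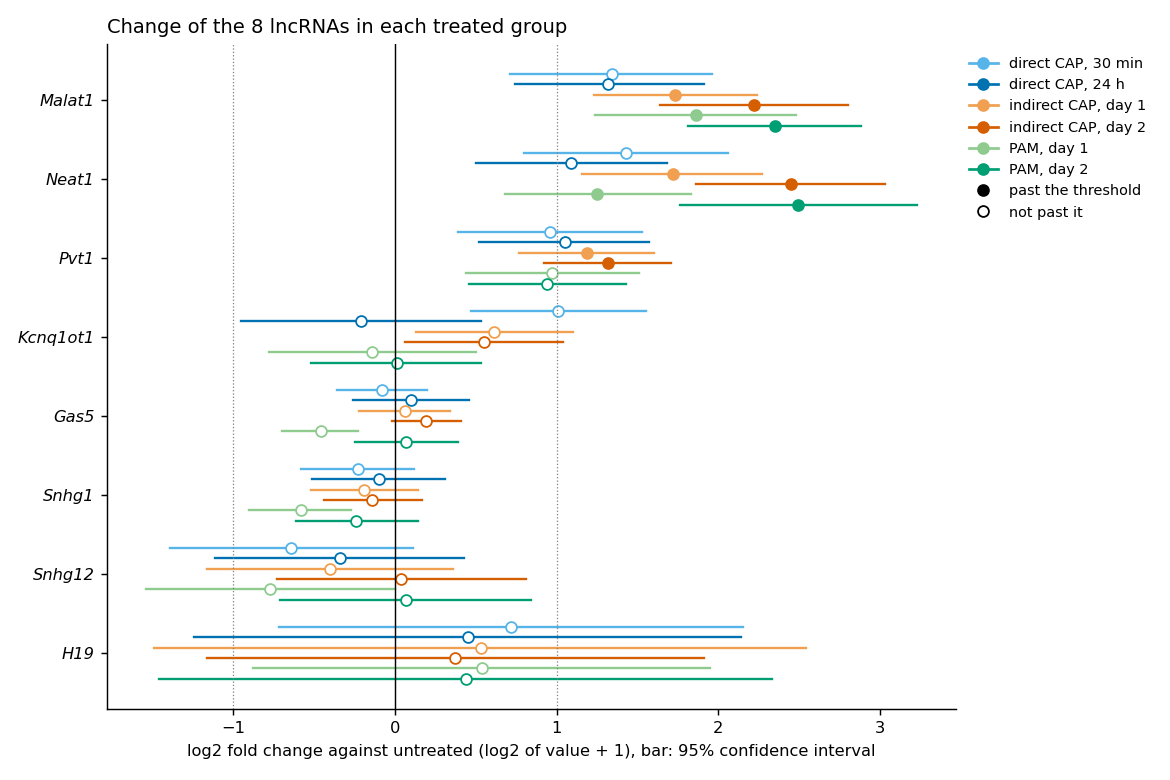
Log2 fold change of each of the 8 lncRNAs against untreated in the 6 treated groups (log2 scale of value + 1), with 95% confidence intervals from limma; filled points pass the threshold, open points do not, and dotted lines mark a change of 1 either way. Malat1, Neat1 and Pvt1 lie above 0 in every group, and the filled points are those of Malat1 and Neat1 in the indirect CAP and PAM groups and of Pvt1 with indirect CAP.

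**Figure D2:**
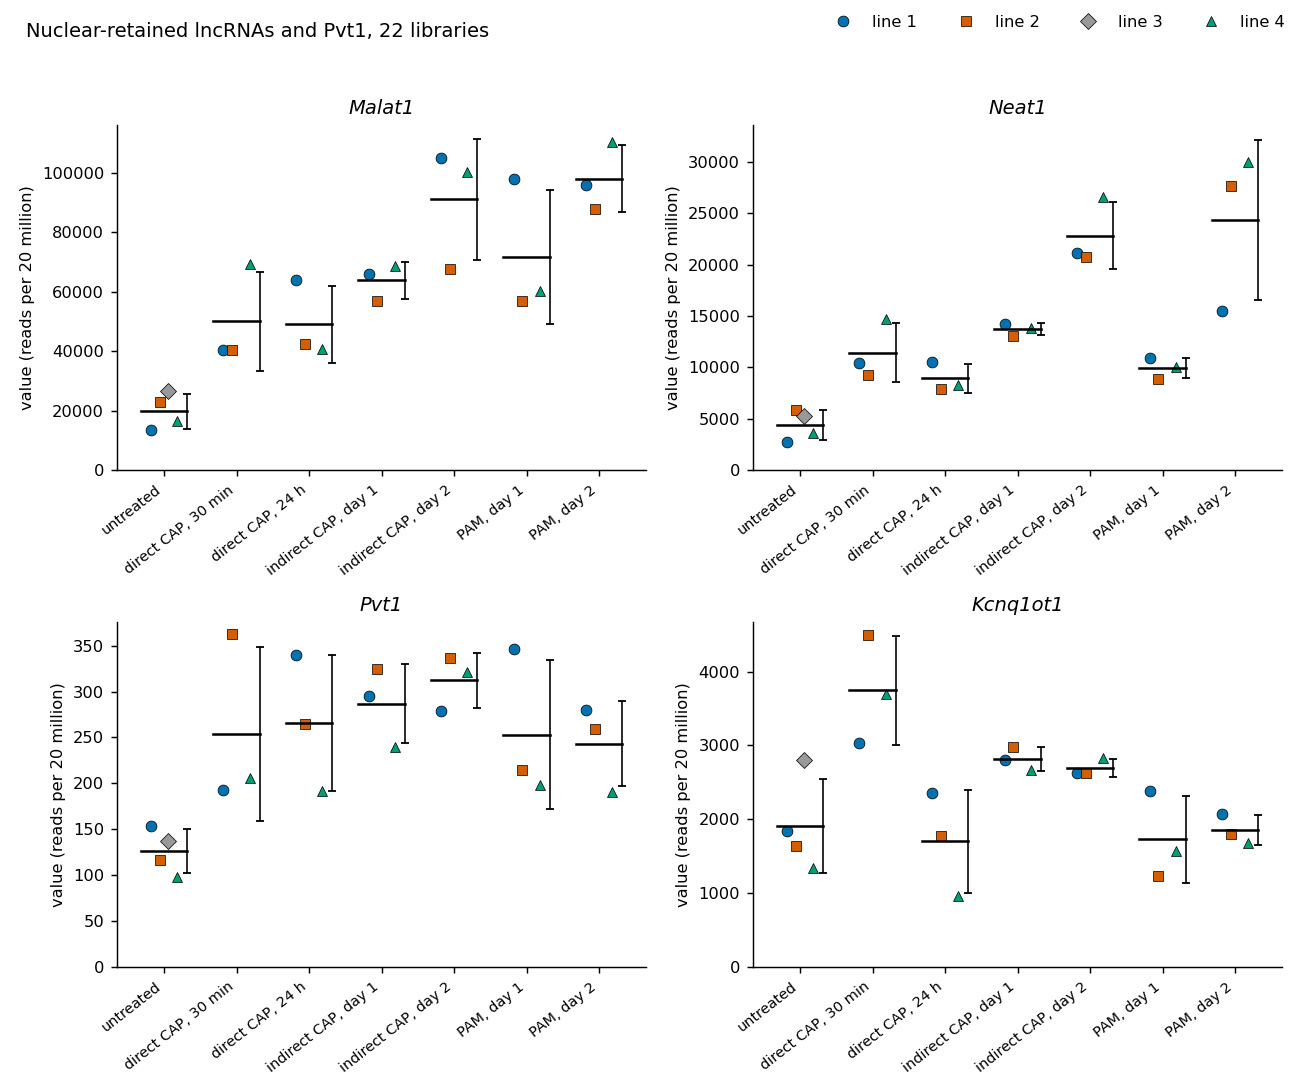
Values of Malat1, Neat1, Pvt1 and Kcnq1ot1 (reads per 20 M, linear axes from 0) in the 22 libraries by group, with symbols for organoid lines 1 to 4, a horizontal bar for the group mean and a vertical bar for ± 1 SD. For Malat1, Neat1 and Pvt1 the untreated libraries lie below all treated ones, while for Kcnq1ot1 only the direct CAP 30 min group lies wholly above them.

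Malat1 (ENSMUSG00000092341, chr19:5795690-5802672 on GRCm38, minus strand, a lincRNA whose exons cover the whole gene) ranked 9 of 52636 genes by mean value. It stood at 13534, 22818, 26502 and 16544 in untreated lines 1, 2, 3 and 4. With direct CAP it was 40518, 40421 and 69247 in lines 1, 2 and 4 at 30 min and 63836, 42453 and 40779 at 24 h. Both direct groups were thus above the highest untreated library but overlapped each other fully. With indirect CAP it was 66098, 56789 and 68756 from day 1 and 104962, 67824 and 100440 from day 2. With PAM it was 97847, 56950 and 60350 from day 1 and 95855, 87930 and 110306 from day 2. Line 2 was the lowest of the 3 lines in 5 of the 6 treated groups.

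Against untreated organoids, Malat1 was 2.52-fold higher at 30 min of direct CAP (95% confidence interval 1.64 to 3.89, adjusted p = 0.1) and 2.5-fold higher at 24 h (1.67 to 3.75, adjusted p = 0.0124). Neither direct group passed the threshold. The rise passed it with indirect CAP from day 1 at 3.32-fold (log2 fold change 1.73 ± 0.22 SE, adjusted p = 0.00465) and from day 2 at 4.66-fold (2.22 ± 0.25, adjusted p = 0.000326). It also passed with PAM from day 1 at 3.63-fold (1.86 ± 0.27, adjusted p = 0.00117) and from day 2 at 5.09-fold (2.35 ± 0.23, adjusted p = 0.000378). Ordered by mean, the groups ran from untreated (19850 ± 5884 SD, n = 4) through direct CAP at 24 h (49023), direct CAP at 30 min (50062), indirect CAP from day 1 (63881), PAM from day 1 (71716) and day 2 indirect CAP (91075) to PAM from day 2 (98030 ± 11346, n = 3). Only untreated and its neighbour were apart, and the ranges of all other neighbours in that order overlapped.

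A few rows of the table moved with Malat1, and some of them lie inside it. Gm27694, at bases 3588 to 3673 from the Malat1 start, held 4.87 to 5.56% of the Malat1 value over the 22 libraries. Gm37376, annotated on the opposite strand at bases 280 to 732, held 4.08 to 5.57%. Gm20417, which has no position in GENCODE vM21, held 9.7 to 10.6% of it, with a Pearson r of 0.9996 over 22 libraries. The strand setting of the counting is not given in the sources used here, so reads of Malat1 and of these rows cannot be told apart, and the rows are not separate lncRNA results.

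Neat1 (ENSMUSG00000092274, chr19:5824708-5845478, minus strand) lies on the same chromosome as Malat1, upstream of it. Its untreated values in lines 1, 2, 3 and 4 were 2686, 5863, 5285 and 3594. Direct CAP gave 10403, 9248 and 14663 in lines 1, 2 and 4 at 30 min, and 10519, 7935 and 8287 at 24 h. The lowest treated library, 7935, was thus above the highest untreated one, 5863. Indirect CAP gave 14256, 13056 and 13808 from day 1 and 21120, 20746 and 26547 from day 2, with no overlap between the days. PAM gave 10862, 8902 and 10076 from day 1 and 15502, 27600 and 29994 from day 2, again with no overlap. Such separation was common, since every day 2 library was above every day 1 library for 12.1% of all genes with indirect CAP and 16.2% with PAM. As for Malat1, line 2 was lowest in 5 of 6 treated groups.

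Neat1 was 2.70-fold higher than untreated at 30 min of direct CAP (1.74 to 4.17, adjusted p = 0.1) and 2.13-fold higher at 24 h (1.41 to 3.2, adjusted p = 0.0249), which did not pass the threshold. The rise passed with indirect CAP at 3.29-fold from day 1 (log2 fold change 1.72 ± 0.24, adjusted p = 0.00611) and 5.45-fold from day 2 (2.45 ± 0.26, adjusted p = 0.000219). With PAM it passed at 2.38-fold from day 1 (1.25 ± 0.25, adjusted p = 0.00496) and 5.63-fold from day 2 (2.49 ± 0.32, adjusted p = 0.000751). With organoid line as a block, the PAM day 1 value was 1.37 with an adjusted p of 0.0152, no longer past the threshold. The order of group means had 2 gaps, between untreated (4357 ± 1472) and direct CAP at 24 h (8914 ± 1401), and between indirect CAP from day 1 (13707 ± 606) and indirect CAP from day 2 (22804 ± 3247).

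The difference between start days was tested for each lncRNA. Neat1 was 1.65-fold higher with indirect CAP from day 2 than from day 1 (log2 fold change 0.73 ± 0.12, interval 0.44 to 1.01, adjusted p = 0.0336), below the fold of the threshold. Of all genes, 0.0111% passed the threshold there and 3.37% had an adjusted p under 0.05. With PAM, Neat1 was 2.36-fold higher from day 2 (1.24 ± 0.26, interval 0.63 to 1.85, adjusted p = 0.0614, and 0.0434 with the line as a block). No gene passed in that comparison by limma, while 26.8% had an unadjusted p under 0.05. The corresponding values for Malat1 were 0.49 (interval 0.02 to 0.96, adjusted p = 0.213) with indirect CAP and 0.49 (-0.09 to 1.07, adjusted p = 0.251) with PAM. The days differ in the age of the culture at exposure and in the time without treated medium before day 3. They also differ in the age of the medium, which was fresh at day 1 and had been treated a day earlier at day 2. These differences cannot be told apart.

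Compared per kilobase of exon, the Malat1 level was 13.8 ± 1.59 times that of Neat1 in untreated organoids. The Neat1 length used was that of the long isoform, 20771 bases, and a shorter length would give a lower ratio. The group means of this ratio ranged from 11.9 ± 2.59 with indirect CAP from day 2 to 21.2 ± 4.87 with PAM from day 1. The PAM day 1 libraries had ratios of 17.8 to 26.8, above the untreated range of 11.6 to 15. Over the 22 libraries, log2 values of Malat1 and Neat1 had a Pearson r of 0.92, and 0.71 after group means were removed. These points share library, scaling and line, and the value is a description.

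Neat1 is made as a short and a long isoform from the same start, and only the long isoform builds paraspeckles. The table cannot separate them, but 3 short rows, Gm28006, Gm27505 and Gm27533, lie between bases 442 and 1193 from the Neat1 start, cover 384 bases (1.85% of 20771) and are on the same strand. Their sum relative to the Neat1 value was examined after its values had been seen. It was 17.1, 16.3, 19.2 and 19% in untreated lines 1, 2, 3 and 4, and 17.4, 16.8 and 22.3% in lines 1, 2 and 4 at 30 min of direct CAP, which overlapped.

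In the other treated groups the share near the start was above the untreated range in every library. Its mean was 24.6 ± 2.5% (SD, n = 3) with direct CAP for 24 h, 23.7 ± 2.16% with indirect CAP from day 1 and 26.5 ± 1.69% with PAM from day 1. From day 2 it was 30.3 ± 2.42% with indirect CAP (27.9 to 32.8%) and 33.1 ± 3.9% with PAM (28.9 to 36.6%). For each of these 5 groups the 2-sided exact permutation test against untreated gave p = 0.0571, the smallest that 3 against 4 libraries allow (adjusted over 7 tests, 0.0666), and p = 0.629 for direct CAP at 30 min. For the 9 libraries exposed for 24 h from day 1, averaged within each line, the share was 7.03 percentage points higher than in the 4 untreated lines (exact permutation p = 0.0571, again the smallest possible). Full separation from the untreated libraries was seen before these tests and fixes p at 0.0571. The p-values at that limit therefore add nothing to the separation, and all the tests use the same untreated libraries. How reads that overlap both Neat1 and a row inside it were counted is not given in the sources used here, so the share is not a measure of isoform use.

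**Figure D3:**
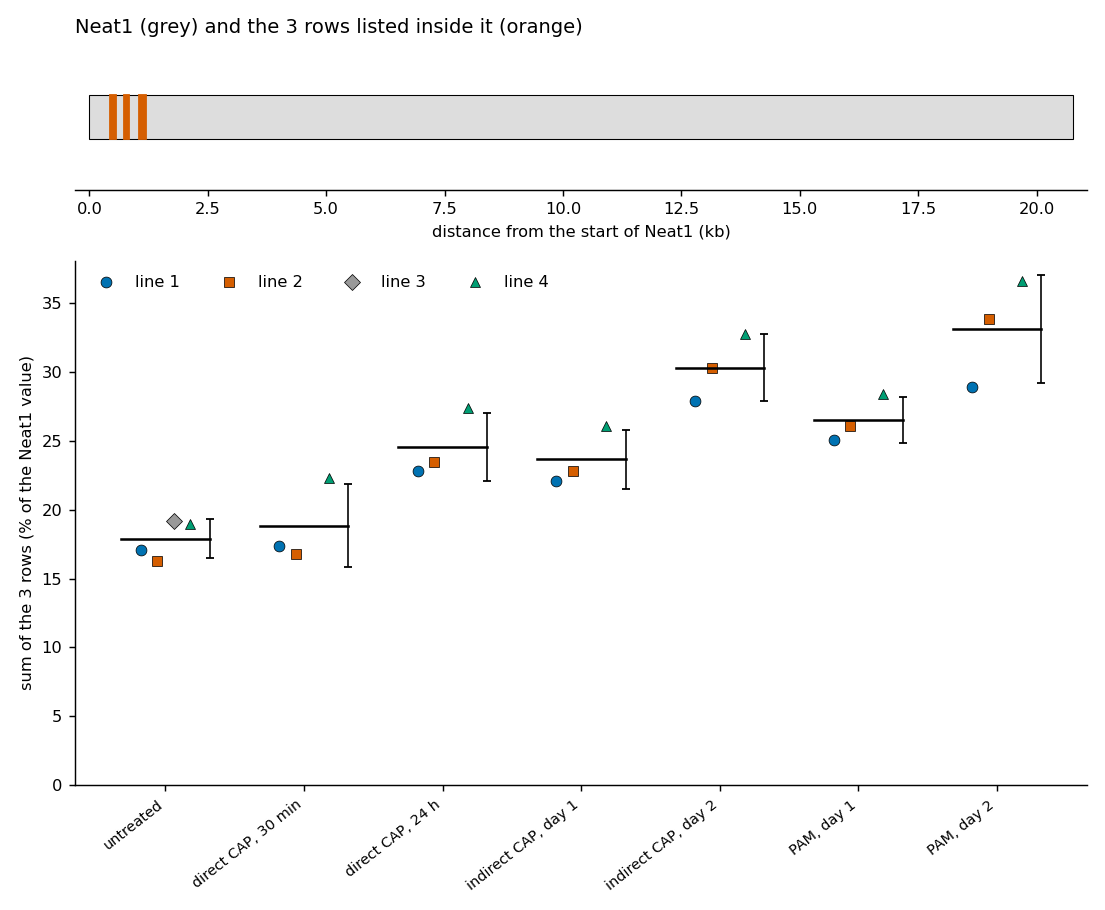
Top, a map to scale of Neat1 (grey, distance from its start in kb) with the 3 rows inside it (orange). Bottom, the summed value of the 3 rows as a percentage of the Neat1 value in each of the 22 libraries, by group and line, with the group mean (horizontal bar) and ± 1 SD (vertical bar); untreated libraries lie between 16.3 and 19.2% and those given PAM from day 2 between 28.9 and 36.6%.

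Pvt1 (ENSMUSG00000097039, chr15:62037986-62378096, plus strand, spliced) was a low-abundance member, with values of 153, 117, 137 and 98 in untreated lines 1, 2, 3 and 4. Direct CAP gave 193, 363 and 206 in lines 1, 2 and 4 at 30 min and 340, 265 and 192 at 24 h. Indirect CAP gave 295, 325 and 240 from day 1 and 279, 337 and 321 from day 2. PAM gave 346, 215 and 198 from day 1 and 280, 259 and 191 from day 2. All of these were above the untreated range, and the ranges of all treated groups overlapped one another in the order of their means. Line 4 was the lowest line in 4 of the 6 treated groups.

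Pvt1 passed the threshold with indirect CAP, at 2.27-fold from day 1 (log2 fold change 1.19 ± 0.18, adjusted p = 0.00767) and 2.49-fold from day 2 (1.32 ± 0.17, adjusted p = 0.00061). In the other groups the estimate was close to the fold limit. It was 1.95-fold at 30 min of direct CAP (adjusted p = 0.11), 2.07-fold at 24 h (adjusted p = 0.0189), 1.96-fold with PAM from day 1 (adjusted p = 0.011) and 1.92-fold with PAM from day 2 (adjusted p = 0.00757). With line as a block, Pvt1 passed with PAM from day 1 (1.02, adjusted p = 0.00682), as it did after quantile normalization (1.07) or median-of-ratios scaling (1.09). With PAM from day 2 it also passed under these scalings (1.23 and 1.05), and without line 4 of that group (1.11). Inside Pvt1 lie 5 other rows, with means of 6.2 to 36.2.

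Kcnq1ot1 (ENSMUSG00000101609, chr7:143203458-143296549, minus strand) is a single exon of 93092 bases inside Kcnq1, on the opposite strand. It was 1842, 1640, 2810 and 1343 in untreated lines 1, 2, 3 and 4. At 30 min of direct CAP it was 3032, 4502 and 3704 in lines 1, 2 and 4, above every untreated library, and at 24 h it was 2357, 1779 and 963, within or below the untreated range. Indirect CAP gave 2801, 2983 and 2662 from day 1 and 2631, 2627 and 2836 from day 2. PAM gave 2381, 1235 and 1576 from day 1 and 2077, 1807 and 1674 from day 2. Kcnq1ot1 therefore followed another order from Malat1 and Neat1, with direct CAP at 30 min highest (3746 ± 736) and direct CAP at 24 h lowest (1700 ± 700).

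No change of Kcnq1ot1 against untreated passed the threshold. The log2 fold change was 1.01 (interval 0.47 to 1.55, adjusted p = 0.106) at 30 min of direct CAP and -0.21 (-0.95 to 0.53, adjusted p = 0.715) at 24 h. With indirect CAP it was 0.61 (adjusted p = 0.0729) from day 1 and 0.55 (adjusted p = 0.0667) from day 2, and the line as a block gave 0.82 (adjusted p = 0.00892) and 0.76 (adjusted p = 0.00812), under the fold limit. With PAM it was -0.14 (-0.78 to 0.50) from day 1 and 0.01 (-0.52 to 0.53) from day 2. Between direct CAP at 24 h and at 30 min, Kcnq1ot1 was -1.21 ± 0.31 on the log2 scale (interval -1.95 to -0.48, adjusted p = 0.205, and 0.0255 with the line as a block), and the library ranges did not overlap. In that comparison no gene passed the threshold by limma, and 21.4% of genes had an unadjusted p under 0.05. Every 24 h library was below every 30 min library for 20.6% of all genes.

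Kcnq1, a potassium channel subunit inside which Kcnq1ot1 lies, had another order of groups. Kcnq1 was 4171 ± 436 in untreated organoids, 4151 ± 328 at 30 min of direct CAP, 2695 ± 33.5 with indirect CAP from day 2 and 1818 ± 358 with PAM from day 2 (log2 fold change -1.21, adjusted p = 0.00057). The ratio of Kcnq1ot1 to Kcnq1 was 0.459 ± 0.151 in untreated organoids. It was 0.898 ± 0.116 at 30 min of direct CAP, where Kcnq1ot1 was higher, and 1.03 ± 0.118 with PAM from day 2, where Kcnq1 was lower. Without the strand setting, reads of Kcnq1ot1 and of unspliced Kcnq1 cannot be told apart.

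The libraries with most Kcnq1ot1 also held more reads in TEC rows, mostly single-exon gene models of unproven status that often lie in introns. Summed over 3006 such rows away from the 8 lncRNAs, these took 0.4 ± 0.0253% of the untreated libraries. They took 0.466 ± 0.0169% at 30 min of direct CAP, 0.385 ± 0.0431% at 24 h, 0.454% with indirect CAP from day 1 and 0.486% from day 2, 0.396% with PAM from day 1 and 0.498% from day 2. Over the 22 libraries the Pearson r of this sum with log2 Kcnq1ot1 was 0.66, and 0.75 with group means removed. The same values were 0.60 and 0.51 for Malat1, 0.75 and 0.47 for Neat1, and 0.50 and 0.59 for Pvt1. The part of such reads in the lncRNA values was not tested.

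**Figure D4:**
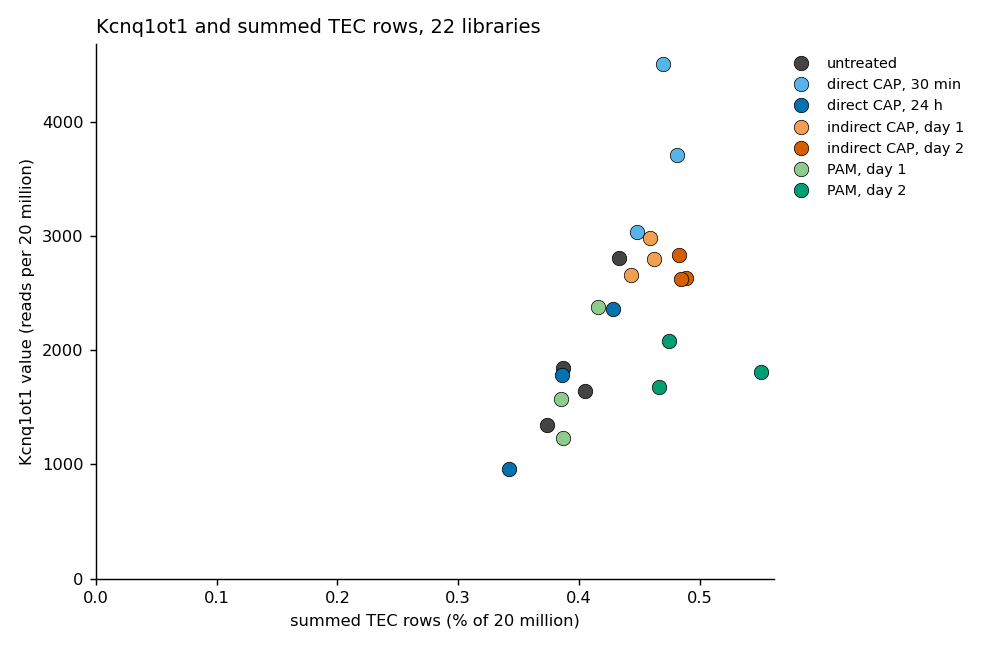
Kcnq1ot1 value (reads per 20 M) against the summed TEC rows (% of 20 M) in the 22 libraries, 1 point per library, coloured by group, with both axes starting at 0. The points rise together (Pearson r of 0.66 with log2 Kcnq1ot1), and the PAM day 2 libraries have high TEC sums with Kcnq1ot1 values of 1674 to 2077.

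The snoRNA host genes did not pass the threshold in any group, and PAM from day 1 had the lowest mean of each. Gas5 (ENSMUSG00000053332, chr1:161034422-161038539, plus strand) was 1968, 1905, 2297 and 1858 in untreated lines 1, 2, 3 and 4. With PAM from day 1 it was 1598, 1312 and 1456 in lines 1, 2 and 4, below all untreated libraries, and with PAM from day 2 it was 2058, 2552 and 1761, which overlapped them. Snhg1 (ENSMUSG00000108414, chr19:8723475-8726443, plus strand) was 967, 1088, 1251 and 937 untreated and 830, 672 and 621 with PAM from day 1, again without overlap. Snhg12 (ENSMUSG00000086290, chr4:132308623-132311024, plus strand) was 285, 326, 771 and 305 untreated and 282, 200 and 201 with PAM from day 1, all below the lowest untreated value, as were the 250, 283 and 210 at 30 min of direct CAP. At 30 min of direct CAP, 11.2% of all genes had every treated library below every untreated one. In the other 5 treated groups together, Gas5 ranged from 1601 to 2630, Snhg1 from 708 to 1154 and Snhg12 from 210 to 462, where other means other than PAM from day 1.

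With PAM from day 1, Gas5 was 0.725 times its untreated level (log2 fold change -0.46 ± 0.10, adjusted p = 0.008) and Snhg1 0.667 times (-0.58 ± 0.14, adjusted p = 0.00975), both under the fold limit of the threshold. Snhg12 was at -0.77 (interval -1.54 to 0, adjusted p = 0.0989), a value that rests partly on untreated line 3, since it was -0.44 without it. The 3 values were negative under the scaling alternatives too, from -0.35 to -0.66 with median-of-ratios scaling, which moved the median of all genes by 0.116 in this comparison. Lower values were common there, since 26.6% of genes had an adjusted p under 0.05 and were lower, and 29.7% had all treated libraries below all untreated. In the remaining groups the log2 fold changes lay between -0.08 and 0.19 for Gas5, -0.24 and -0.10 for Snhg1 and -0.64 and 0.07 for Snhg12, with adjusted p of 0.133 or more. Between PAM from day 2 and from day 1, Gas5 differed by 0.53 (interval 0.15 to 0.91, adjusted p = 0.0997) and Snhg12 by 0.84 (0.36 to 1.32, adjusted p = 0.0725), and neither passed.

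**Figure D5:**
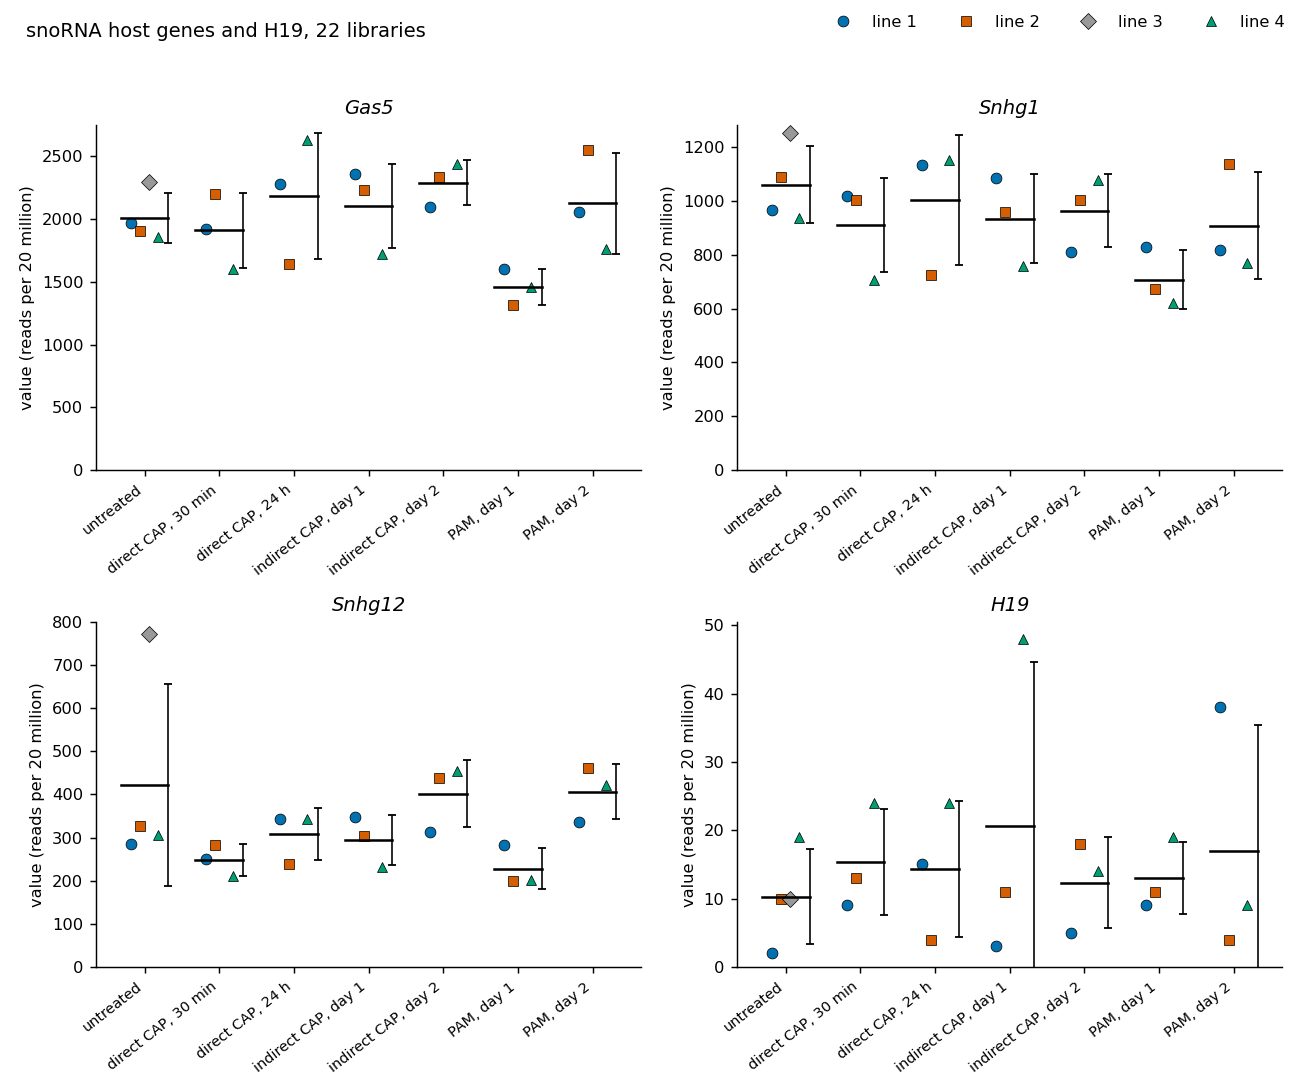
Values of Gas5, Snhg1, Snhg12 and H19 (reads per 20 M, linear axes from 0) in the 22 libraries by group, with symbols for organoid lines 1 to 4, the group mean (horizontal bar) and ± 1 SD (vertical bar, cut off at 0 for H19). Gas5 and Snhg1 lie below the untreated range in all PAM day 1 libraries, and untreated line 3 stands apart for Snhg12 at 771.

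The hosts varied together from library to library. Over the 22 libraries Gas5 and Snhg1 had a Pearson r of 0.86 (0.92 with group means removed), Gas5 and Snhg12 of 0.72 (0.69) and Snhg1 and Snhg12 of 0.72 (0.75). Against Malat1 the r was 0.01 for Gas5, -0.30 for Snhg1 and 0.02 for Snhg12. These are descriptions over libraries that share lines and scaling.

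The snoRNAs inside the hosts were listed in 10 rows for Gas5, 8 for Snhg1 and 5 for Snhg12, with mean values of 16.6 to 101. No snoRNA row passed the threshold in any of the 7 comparisons with untreated. At an adjusted p under 0.05, 1 Gas5 row was lower with PAM from day 1, and 1 Gas5 row and 2 Snhg1 rows with PAM from day 2, beside 26.6% and 29.1% of all genes. The median log2 fold change of the Gas5, Snhg1 and Snhg12 rows was -0.54, -0.34 and -0.57 with PAM from day 1 (all genes, -0.13, and all 196 snoRNA rows tested, -0.39). With PAM from day 2 it was -0.49, -0.46 and -0.77 (all genes, -0.12, and all 212 snoRNA rows tested, -0.16). In the other groups these medians lay between -0.39 and 0.28. The r of a snoRNA row with its host was 0.35 to 0.60 for Gas5, 0.39 to 0.70 for Snhg1 and 0.21 to 0.55 for Snhg12, and reads of a host and of a snoRNA inside it cannot be fully told apart.

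H19 (ENSMUSG00000000031, chr7:142575529-142578143, minus strand) was near the lower limit of the table. It was 2, 10, 10 and 19 in untreated lines 1, 2, 3 and 4 and ranged from 3 to 48 in the treated libraries. In the 6 groups its log2 fold change lay between 0.37 and 0.72, with intervals such as -0.72 to 2.15 at 30 min of direct CAP. Adjusted p was 0.505 or more, and at this depth a change of H19 was not detectable. Its microRNA row, Mir675, had a mean of 2.3.

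The lncRNAs thus differed in level as well as in response. In untreated organoids the mean value per kilobase of exon was 2843 ± 843 for Malat1, 534 ± 52.8 for Gas5, 357 ± 48 for Snhg1, 210 ± 70.9 for Neat1, 176 ± 97.2 for Snhg12, 20.5 ± 6.82 for Kcnq1ot1, 18 ± 3.42 for Pvt1 and 4.17 ± 2.82 for H19 (SD, n = 4). Neighbours in that order whose library ranges overlapped were Neat1 and Snhg12, and Kcnq1ot1 and Pvt1. The exon length joins all annotated transcripts of a gene. For Snhg1 (2969 bases) and Snhg12 (2402 bases) it equals the whole gene, introns included, and for Neat1 it is that of the long isoform. The order depends on these lengths. All 8 passed the filter on low values in each comparison.

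With the 9 libraries of direct CAP, indirect CAP or PAM for 24 h from day 1 as a single group against the 4 untreated, Malat1, Neat1 and Pvt1 passed the threshold, as 6.34% of all genes did (4.27% upward). Malat1 was 3.11-fold higher (95% confidence interval 2.26 to 4.28, adjusted p = 0.000208), Neat1 2.56-fold (1.89 to 3.46, adjusted p = 0.000486) and Pvt1 2.10-fold (1.6 to 2.74, adjusted p = 0.000943). Without untreated line 4, Pvt1 was at 0.95 on the log2 scale and under the fold limit. All 9 libraries were above all 4 untreated for these RNAs, as for 7.16% of genes. Kcnq1ot1 was at 0.09 (interval -0.52 to 0.70), Gas5 at -0.10, Snhg1 at -0.29 and Snhg12 at -0.50, and none of these passed. The 9 libraries are lines 1, 2 and 4 with 3 libraries each, so the p-values, which treat libraries as independent, are too small.

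The calls with indirect CAP from day 1 were near the limit. The 3 lncRNAs dropped to 0 past the threshold when line 1, 2 or 4 of that group or untreated line 2 or 4 was left out, to 1 without untreated line 3 and to 2 without untreated line 1, with adjusted p of up to 0.026. With PAM from day 1 the count dropped from 2 to 1 without line 1, 2 or 4 of that group or untreated line 4, and it was Neat1 that no longer passed (adjusted p of 0.0101 to 0.0197). The calls from day 2 held when any single library was left out.

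Indirect CAP and PAM from day 1 were each also compared with direct CAP for 24 h. No lncRNA passed, and no gene passed the threshold by limma in either comparison. Before adjustment, 6.95% of genes were below 0.05 for indirect CAP and 10.4% for PAM. Indirect CAP gave values above direct CAP of 0.41 for Malat1 (interval -0.10 to 0.91), 0.63 for Neat1 (0.31 to 0.95) and 0.82 for Kcnq1ot1 (0.14 to 1.5) on the log2 scale, all with an adjusted p of 0.629. PAM differed from direct CAP by 0.54 for Malat1 (-0.11 to 1.18), 0.16 for Neat1 (-0.18 to 0.51), -0.56 for Gas5 (-0.99 to -0.14, adjusted p = 0.43) and -0.48 for Snhg1 (-0.97 to 0).

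For the protein partners of these RNAs counts were read against those over all genes. The threshold was passed downward by 5.4% of all genes with PAM from day 1, 10.5% with PAM from day 2 and 5.71% with indirect CAP from day 2. Of 20 paraspeckle protein genes, none passed the threshold upward in any comparison with untreated. Nudt21, a subunit of the cleavage factor that sets the polyadenylation site, fell with PAM from day 1 (log2 fold change -1.02, adjusted p = 0.000182) and from day 2 (-1.21, adjusted p = 0.000401), and Nono, a core paraspeckle protein, fell with PAM from day 2 (-1.02, adjusted p = 0.000516). At an adjusted p under 0.05, 12 of the 20 were lower and 2 higher with indirect CAP from day 2 (over all genes, 23.5% were lower and 20.3% higher). The lower ones numbered 0 at 30 min of direct CAP, 8 at 24 h (10.2% of all genes), 4 with indirect CAP from day 1 (10.4%), 13 with PAM from day 1 (26.6%) and 12 from day 2 (29.1%). The list's median log2 fold change with PAM from day 1 was -0.56, against -0.13 over all genes tested.

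Among 20 nuclear speckle protein genes, the splicing factors Srsf3 (-1.0) and Srsf7 (-1.08) fell with PAM from day 1, and Srsf1 (-1.17), Srsf4 (-1.05) and Srsf7 (-1.05) fell with PAM from day 2. None rose past the threshold, and 5.4% and 10.5% of all genes passed it downward with PAM from day 1 and day 2. At an adjusted p under 0.05, 0 of the 20 were lower at 30 min of direct CAP, 9 at 24 h, 6 and 10 with indirect CAP from day 1 and day 2, and 16 and 12 with PAM from day 1 and day 2, beside the same shares of all genes. The list's median was -0.53 with PAM from day 1. Of 15 nonsense-mediated decay factors, Magoh, of the exon junction complex, fell with PAM from day 1 (-1.06) and day 2 (-1.14), beside the same downward shares of all genes. Of 16 other snoRNA host genes tested, only Snhg18 passed, lower in both day 2 groups (-2.13 with indirect CAP, adjusted p = 0.00621, and -2.42 with PAM, adjusted p = 0.00645). There 5.71% of all genes passed downward with indirect CAP and 10.5% with PAM. At an adjusted p under 0.05, 6 of these 16 hosts were lower with PAM from day 1 and 3 with PAM from day 2, against 26.6% and 29.1% of all genes.

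The genomic neighbours did not share one pattern. Beside Malat1 and Neat1, Frmd8 was 0.33 to 1.26 higher on the log2 scale in the 6 groups and passed with PAM from day 2 (1.26, adjusted p = 0.000338). Ltbp3 lay between 0.26 and 0.88 and did not pass. Myc, the neighbour of Pvt1, lay between 0.05 and 0.39 in 5 groups and at -0.69 (adjusted p = 0.041) with PAM from day 2, where Pvt1 was at 0.94. Beside Snhg1, the amino acid transporter subunit Slc3a2 passed upward in both day 2 groups. It was at 1.05 (adjusted p = 8.47e-05) with indirect CAP and at 1.24 (adjusted p = 0.000321) with PAM. Short of the fold limit, it was at 0.76 (adjusted p = 0.00485) with direct CAP at 24 h and 0.77 (adjusted p = 0.00378) with indirect CAP from day 1. At 30 min of direct CAP it was at 0.2 (adjusted p = 0.166). Wdr74, also beside Snhg1, lay between -0.35 and 0.18. Zbtb37, which overlaps Gas5 on the opposite strand, lay between -0.43 and 0.17, and Trnau1ap beside Snhg12 between -0.56 and -0.04.

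In the imprinted region of Kcnq1ot1, Slc22a18 passed with PAM from day 1 (1.03, adjusted p = 0.000228). Phlda2 was at 0.98 (adjusted p = 0.00492) and Cdkn1c at 1.52 (adjusted p = 0.0225) with indirect CAP from day 2, neither past the threshold. Beside H19, Mrpl23 lay between -0.48 and 0.08 and Igf2 was tested in only 3 of the 7 comparisons, with an adjusted p of 0.122 or more. On the imprinted list, Grb10, an adaptor that restrains insulin signalling, rose in 5 of the 6 groups (2.18 to 4.0 on the log2 scale). Ascl2, a stem cell transcription factor, fell with both PAM exposures (-1.52 from day 1, -2.88 from day 2) and with indirect CAP from day 2 (-1.0). Of 10 immediate early genes, 1 passed upward at 30 min of direct CAP (Egr1), 4 at 24 h, 5 with indirect CAP from day 1, 4 with PAM from day 1 and 7 in each day 2 group, beside the upward shares of all genes given above.

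Of 11804 genes with a mean of 100 or more, the ones most like each lncRNA over the 22 libraries were taken by the Pearson r of log2 values. For Neat1 they were the rows inside it. For Malat1 they were Gm20417, which has no position in GENCODE vM21, and the rows Gm27694 and Gm37376 inside it. Away from the locus they were the laminin chain gene Lama5 (0.973), BC037034 (0.964) and Pitpnm1 (0.954) for Malat1. Those for Neat1 were Gm37352 (0.975), AC153517.1 (0.939) and Mroh3 (0.934). Kcnq1ot1 was most like Phc3 (0.909), 4932422M17Rik (0.906) and Eps15l1 (0.903), and Pvt1 was most like Atg9b (0.866), Rarg (0.837) and Sesn2 (0.833). Gas5 was most like Riok1 (0.888), Snhg1 (0.863) and Rabggtb (0.85), and Rabggtb was also among the nearest to Snhg1 (0.865), with Gm24336 (0.877) and Gas5. Snhg12 was most like Mrpl35 (0.855), Tfpt (0.853) and Polb (0.848). These values describe libraries that share lines, groups and scaling.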

How the data were processed

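Total RNA of 22 organoid cultures was sequenced as paired reads of 100 bases. Per the labels, reads were trimmed with Trimmomatic 0.36, aligned with STAR 2.5.3a to GRCm38.p4 and counted per gene with HTSeq 0.9.1. The study's methods name a pair of library kits and the labels only the Ovation SoLo kit, and the strand setting is not given in the sources used here. The deposited values are a score: counts scaled by the authors to 20 M per library and rounded up. They sum to 20007540 to 20016513. The study's methods describe the unit as per kilobase, but in 21 of 22 libraries the step between low values was the same within 0.1% in shorter and longer genes, which a division by length would not leave. The values were therefore read as not per length. Raw counts were not used here.

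Genes were matched by identifier to GENCODE vM21 (99.6% of 52636). After adding 1 and taking log2, limma 3.58.1 in R 4.3.3 was run (trended moderated test, 2-sided, Benjamini-Hochberg over all genes that reached 10 in 3 or more of the libraries fitted), so folds of low genes are understated. In simulated data with 200 changed genes, 200 were found in each of 3 designs, with 0 to 2 false calls. Recovery at the levels and folds of these lncRNAs was not tested separately, so their power is not given. Permutation tests and tables used Python 3.11.15 with scipy 1.17.1, and figures matplotlib 3.10.9. Reads per library were estimated from the spacing of low values, which cannot be read where the scale is near 1 and limits precision: at 20 M reads a value near 10 rests on about 10 reads. In 12 comparisons, only the groups compared were fitted.

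Same-numbered libraries come from the same organoid line by their labels. With group means removed, treated libraries of a line correlated at 0.27 to 0.93, untreated line 4 with its own line at 0.64 to 0.79, but untreated lines 1 and 2 at 0.06 to 0.31 and 0.14 to 0.33. The line as a block was an alternative, not the main fit. Alternatives were quantile and median-of-ratios scaling, adding 10 in place of 1, testing without the filter, a single fit of all 7 groups, line as a block, an adjusted p under 0.05 with no fold limit, and leaving out each library. The lncRNAs and gene lists were chosen with earlier results of these data known. Genes named beside the 8 lncRNAs were the 3 most correlated with each (mean of 100 or more), the genomic neighbours, and at most 4 per list among those past the threshold by size of change. Some genes of the lists are not reported here.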

Additional observations from a re-analysis of the deposited data

Results flagged for a closer look

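Snhg12 in untreated line 3 stood at 771, against 285 to 326 in the other untreated lines. Its gap to the next value was 0.916 of the group's range, above Dixon's 95% limit for 4 samples, which chance passes in about 1 of 20 groups. Line 3 has no treated library, so it enters only the comparisons with untreated organoids. Neat1 differed between indirect CAP from day 2 and from day 1 by 0.73 on the log2 scale (adjusted p = 0.0336, limma), and the lowest day 2 library, 20746, was above the highest day 1 library, 14256. The same separation was found for 12.1% of all genes.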

How the results depend on the processing

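Of 1349 values of single lncRNAs under alternatives, 1306 kept their side of the threshold, 24 no longer passed, 19 newly passed, and none that passed in either fit changed sign. Among the 1306, 77 changed sign, all of them values that passed in neither fit and were at most 0.54 in size as reported. The number of lncRNAs past the threshold with direct CAP for 24 h was 0, but 1 with median-of-ratios scaling, 3 with all 7 groups in a single fit and 3 at an adjusted p under 0.05 without a fold limit. That last rule gave 5 in place of 2 with PAM from day 1 and 1 in place of 0 between the indirect CAP days. With all 7 groups in a single fit, 1 (Neat1, 1.24, adjusted p = 0.00298) passed between the PAM days. Leaving out single libraries gave 0 to 2 with indirect CAP from day 1, in place of 3, and 1 to 2 with PAM from day 1. With line as a replicate block the counts were 0, 0, 3, 3, 2 and 2 in the 6 groups, as without it, although with PAM from day 1 Pvt1 passed in place of Neat1 (adjusted p = 0.0152). In 3 of the 6 fits between PAM days that left out a library, H19 was below the filter. The depth limits H19, whose values ran from 2 to 48, and gene totals cannot separate the Neat1 isoforms or the strands at Malat1 and Kcnq1ot1.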
